A study of Homo sapiens with 48 samples.

Results

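The 10 genes described here encode proteins of insulin and insulin-like growth factor (IGF) signalling: IGFBP2, IGFBP5, IRS1, IRS2, IRS4, IGF1R, INSR, IGF2R, FOXO1 and FOXO3. They were chosen by name, with earlier results of these data known. They are the rows of the deposited count tables whose Ensembl identifiers carry these symbols, and all 10 were found among 14685 genes. The tables hold RNA sequencing of HEK293T cells, a human embryonic kidney line, that had all been transfected transiently with a plasmid for NCBP1, a protein that binds the cap of new mRNAs in the nucleus, fused to Halo. In the T-REX arm, a photocaged precursor of the lipid electrophile HNE bound to Halo and light then released HNE beside NCBP1 (HNEylation of NCBP1). The 3 technical controls were light alone, probe alone (the precursor without light) and DMSO without light. The study's Methods list the precursor also for light alone, so what separated that arm from T-REX could not be settled here. Each arm was sampled at 3, 6 and 12 h with 4 replicates, which gave 48 libraries. The cells kept their endogenous NCBP1 gene in every arm (genotype WT in the labels), and the share of cells that took up the plasmid was not measured here.

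Insulin and IGFs bind the receptor tyrosine kinases INSR and IGF1R, which phosphorylate adaptor proteins of the insulin receptor substrate (IRS) family. The IRS proteins recruit phosphatidylinositol 3-kinase, which activates AKT, and AKT holds the FOXO transcription factors in the cytoplasm. IGF-binding proteins (IGFBP) carry IGFs outside the cell and set how much reaches the receptors, and IGF2R takes up IGF2 for degradation in lysosomes. IRS4 has a narrow range of expression in adult tissues and was first purified from human embryonic kidney cells, in which it is the main IRS protein.

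Library totals spanned 23952455 to 37099535 counts (median 29405598.5). Of 11 genes fixed as markers of HEK293T cells, 9 were in the tables, among them VIM and LIN28B, and PAX2 and SALL4 were not. KRT8 and KRT18 of the same list were low, at 4.39 to 10.4 and 7.14 to 13.4 CPM. Of 19 markers of other cell types, 1 was in the tables, COL1A1, at 2.13 to 6.07 CPM. CPM here are counts scaled by library totals and TMM factors over all 48 libraries. NCBP1 counts, which mix the plasmid and the endogenous gene, differed between arms, and they are given beside the results they move with.

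All 14685 genes passed edgeR's filter on low counts, the 10 members among them. IRS4 led the members by far. Divided by exon length (GENCODE 29), the mean level over all libraries was 128 CPM per kb for IRS4, against 1.83 for IRS2 and 0.699 for IRS1, the adaptors that carry the signal in most tissues. FOXO3 followed at 21.2 CPM per kb, and the receptors IGF1R, IGF2R and INSR at 13.3, 12.6 and 9.38. FOXO1 stood at 7.06 and IGFBP5 at 6.22 CPM per kb, and IGFBP2 at 1.03. The lowest genes carried few reads: IGFBP2 had 54 to 205 counts per library and IRS1 had 124 to 280, whereas IRS4 had 9650 to 21864. Differences of the same size were therefore measured less precisely for IGFBP2 and IRS1. FOXO3 has a near-identical copy, FOXO3B, and how reads that fit both were counted is not given in the sources used here, so that the counts of either are uncertain.

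The promoters of the 4 members that were called at 12 h are shown to set them side by side. Each is the 250 bases before the RefSeq transcription start (GRCh38.p14), 5′ to 3′ on the gene's strand, and that of IRS4 is 1 of 2 starts in the table. Capitals mark matches on either strand to GGGCGG (a GC box, the site of SP1), CACGTG (an E-box) and TATTTAA, an A/T-rich stretch near the start that was chosen after reading the IGFBP5 window.
IGFBP5 (chr2:216695550-216695799, minus strand): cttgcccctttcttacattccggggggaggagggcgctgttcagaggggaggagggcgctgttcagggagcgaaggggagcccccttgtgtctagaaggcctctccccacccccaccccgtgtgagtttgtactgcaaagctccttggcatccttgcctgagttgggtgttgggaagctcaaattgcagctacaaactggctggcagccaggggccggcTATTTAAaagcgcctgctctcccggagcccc
IRS4 (chrX:108736564-108736813, minus strand): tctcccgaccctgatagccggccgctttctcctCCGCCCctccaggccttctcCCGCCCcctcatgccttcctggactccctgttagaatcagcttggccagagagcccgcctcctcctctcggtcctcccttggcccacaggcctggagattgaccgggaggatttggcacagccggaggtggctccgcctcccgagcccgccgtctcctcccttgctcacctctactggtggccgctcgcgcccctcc
INSR (chr19:7294415-7294664, minus strand): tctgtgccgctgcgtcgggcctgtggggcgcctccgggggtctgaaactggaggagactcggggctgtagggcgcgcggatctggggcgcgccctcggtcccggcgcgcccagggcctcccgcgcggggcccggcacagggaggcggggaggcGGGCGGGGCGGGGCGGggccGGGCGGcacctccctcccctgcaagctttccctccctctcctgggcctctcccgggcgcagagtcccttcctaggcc
IGF2R (chr6:159968832-159969081, plus strand): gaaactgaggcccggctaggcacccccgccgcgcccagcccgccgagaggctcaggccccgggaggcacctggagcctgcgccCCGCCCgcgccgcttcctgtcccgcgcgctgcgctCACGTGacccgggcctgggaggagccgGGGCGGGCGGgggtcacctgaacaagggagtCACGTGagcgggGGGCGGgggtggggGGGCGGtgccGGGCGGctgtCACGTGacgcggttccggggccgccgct
IGFBP5 held no GC box, which made it the exception among the 10 genes when every start in the table was counted, and 42.6% of 35116 promoters in the table held one. TATTTAA stood in the IGFBP5 window and in 4.17% of all promoters. IGF2R held 3 E-boxes. When every start was counted, 2 of the 10 genes held an E-box, against 6.34% of promoters. The FOXO core motif GTAAACA, present in 2.98% of promoters, the TATA box TATAAA (10.7%) and the ATF4 element TGATGCAA (0.772%) were in no window of the 10 genes. These are matches of letters and say nothing about binding.

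IGFBP5 (ENSG00000115461), a secreted binding protein that sequesters IGFs, was lower under T-REX than in every control at 12 h. The 4 T-REX libraries at 12 h stood at 38.3, 43.3, 39.8 and 39.1 CPM. Light alone gave 54.2, 58.6, 65.0 and 51.9 CPM, probe alone 56.7, 54.4, 55.6 and 44.1 CPM and DMSO 61.1, 59.2, 52.0 and 56.3 CPM. Every T-REX library lay below every control library, the nearest being probe alone replicate 4. The log2 fold change was -0.52 against light alone with a standard error of 0.08 (edgeR's quasi-likelihood test, Benjamini-Hochberg adjusted p = 0.000648 over all genes). It was -0.51 against DMSO (standard error 0.08, edgeR adjusted p = 0.000263) and -0.40 against probe alone (standard error 0.08, edgeR adjusted p = 0.0138). IGFBP5 was thus an SDE gene at 12 h, a gene called (adjusted p of at most 0.05) and moving the same way against 2 or 3 of the controls. At 12 h, 2 of the 10 members were SDE genes, IGFBP5 and IRS4, both lower, against 1.4% of all genes. The study itself names IGFBP5 among its top-ranked changed genes. This share therefore only describes a list that was chosen with earlier results known. In bulk RNA, fewer cells that express a gene and less RNA per cell cannot be told apart.

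The controls did not differ detectably in IGFBP5 at 12 h. The log2 fold change between light alone and DMSO was 0.00 (95% interval -0.15 to 0.16), and probe alone lay -0.11 from DMSO (-0.27 to 0.04). At 12 h NCBP1 exceeded its DMSO level under T-REX (0.73, edgeR adjusted p = 0.00252) and lay at 0.51 against light alone and -0.04 against probe alone, neither called, and its part in the IGFBP5 result was not tested. The calls against light alone and DMSO held in all 16 fits that each left out 1 library. The call against probe alone did not hold without T-REX replicate 1 or 4 or probe alone replicate 1, 2 or 3, with adjusted p between 0.0561 and 0.0930 in edgeR.

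At 3 h, IGFBP5 stood at 26.0, 26.8, 27.8 and 22.1 CPM under T-REX. Light alone gave 27.2, 25.6, 30.8 and 26.6 CPM, probe alone 33.8, 33.9, 30.6 and 33.7 CPM and DMSO 25.1, 28.0, 29.6 and 28.0 CPM. T-REX overlapped light alone and DMSO and lay below every probe alone library. The difference from probe alone was called (log2 fold change -0.35, edgeR adjusted p = 0.0433), and probe alone itself was the highest arm. It was 1 call among 10 members, where 1.05% of all genes were called, and it was lost in 10 of 16 fits that left out 1 library, namely without T-REX replicate 1, 2 or 4, probe alone replicate 1, 2 or 3, light alone replicate 1 or 4 or DMSO replicate 1 or 2 (edgeR adjusted p = 0.0501 to 0.143). It was lost as well in the fit of only these 2 arms (edgeR adjusted p = 0.202).

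At 6 h, IGFBP5 stood at 31.4, 38.0, 38.5 and 31.2 CPM under T-REX, 40.6, 53.7, 49.0 and 38.4 for light alone, 37.6, 45.9, 41.7 and 36.6 for probe alone and 37.9, 36.6, 42.7 and 37.6 for DMSO. The arms overlapped, with the highest T-REX library above the lowest of each control. The log2 fold changes of -0.39, -0.22 and -0.16 in the order light alone, probe alone, DMSO were not called (edgeR adjusted p = 0.119, 0.749 and 0.592).

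**Figure D1:**
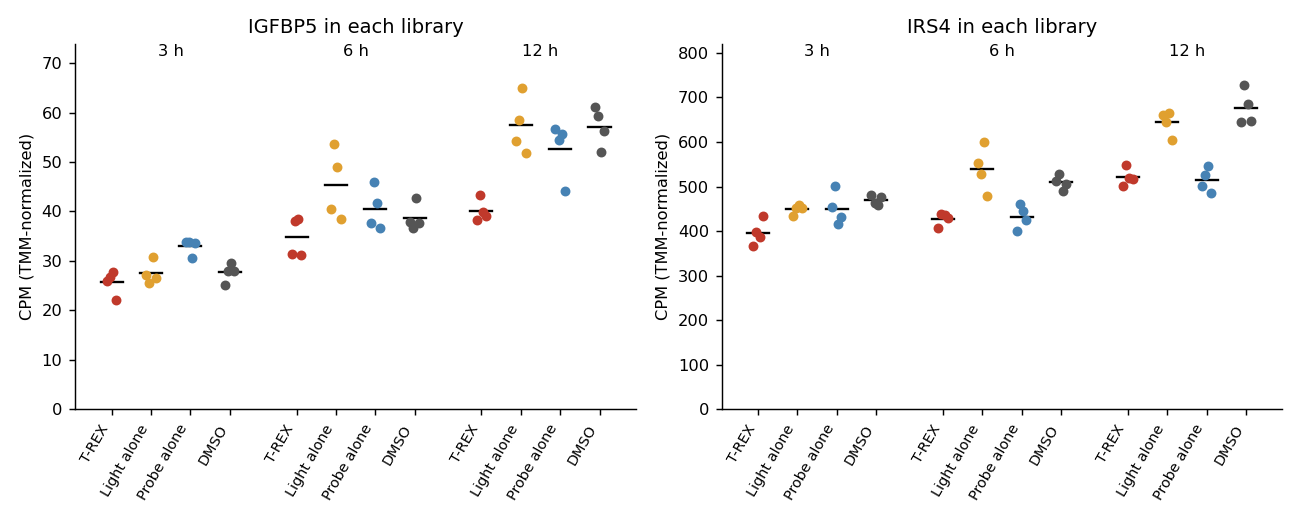
IGFBP5 (left) and IRS4 (right) in CPM, 1 point per library, by arm and time, with a bar at the mean of the 4 libraries of an arm. At 12 h the T-REX libraries of IGFBP5 lie at 38.3 to 43.3 CPM, below all controls, whereas those of IRS4 lie among the probe alone libraries and below light alone and DMSO.

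Between the controls, 5 of 90 values of the members were called over the 3 times, 3 of them of IRS4 and 1 each of INSR and IGF2R, as given beside those genes. Light alone against DMSO called 0 members and 0.00681%, 0.00681% and 0.0136% of all genes at 3, 6 and 12 h. Probe alone against DMSO called 0 members at 3 and 6 h, with 0.00681% and 0.0272% of all genes. Light alone against probe alone called 0 members at 3 h, with 0.232% of all genes. In these 6 comparisons the members with an unadjusted p of at most 0.05 in edgeR numbered 0, 4, 0, 1, 2 and 3, and DESeq2 called 1 and limma 0 values in all.

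IGFBP2 (ENSG00000115457), the neighbour of IGFBP5 on chromosome 2 and the other binding protein among the members, was not called in any of the 9 comparisons with T-REX. At 12 h it stood at 4.01, 4.59, 4.90 and 4.84 CPM under T-REX, 5.70, 6.03, 5.57 and 5.71 for light alone, 4.32, 3.52, 6.31 and 4.58 for probe alone and 5.98, 7.00, 4.08 and 5.02 for DMSO. T-REX lay below light alone without overlap, as did 12.6% of all genes in either direction, and overlapped the other controls. The log2 fold change against light alone was -0.33, with a 95% interval of -0.66 to 0.00 that also holds the value of IGFBP5.

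IRS4 (ENSG00000133124), on the X chromosome, was lower under T-REX than with light alone and DMSO at 12 h, and was not separated from probe alone. The 12 h libraries stood at 502, 548, 519 and 518 CPM under T-REX and 502, 526, 547 and 485 CPM for probe alone. Light alone gave 661, 645, 666 and 605 CPM and DMSO 646, 727, 685 and 646 CPM. The T-REX and probe alone libraries were interspersed, and all 8 lay below the lowest library of light alone and DMSO. The log2 fold change of T-REX was -0.30 against light alone (standard error 0.051, edgeR adjusted p = 0.00138) and -0.38 against DMSO (standard error 0.051, edgeR adjusted p = 6.45e-05). Against probe alone it was 0.02, with a 95% interval of -0.08 to 0.12. Probe alone was itself called lower than DMSO (log2 fold change -0.39, edgeR adjusted p = 0.000369), in a comparison that called 5.11% of all genes. Light alone was called higher than probe alone (0.32, edgeR adjusted p = 0.00269, where 0.415% of all genes were called). None of these 4 calls was lost when any 1 library was left out.

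At 6 h the order was similar. IRS4 stood at 406, 437, 435 and 431 CPM under T-REX and 401, 459.8, 445 and 425 for probe alone, against 552, 528, 599 and 479 for light alone and 512, 528, 491 and 507 for DMSO. T-REX again overlapped probe alone and lay below every library of the other 2 controls. The log2 fold change was -0.34 against light alone (edgeR adjusted p = 0.00614), -0.25 against DMSO (edgeR adjusted p = 0.049) and -0.02 against probe alone (95% interval -0.13 to 0.10). IRS4 was the 1 SDE gene among the members at 6 h, where 0.136% of all genes were SDE genes. Against light alone 0.218% and against DMSO 0.415% of all genes were called at 6 h. The SDE status of IRS4 rested on the call against DMSO, which was lost in 14 of 16 fits that left out 1 library, with TMM replaced by RLE factors and with a replicate block. The call against light alone held in all 16 of those fits and was lost in a fit of only these 2 arms (edgeR adjusted p = 0.139). Light alone was also called higher than probe alone at 6 h (0.32, edgeR adjusted p = 0.0258, with 0.0613% of all genes called), and this was lost without light alone replicate 1, 2 or 3 or probe alone replicate 1, 3 or 4 (edgeR adjusted p = 0.0502 to 0.187) and in a fit of only those 2 arms (edgeR adjusted p = 0.353).

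At 3 h, IRS4 stood at 367, 397, 388 and 434 CPM under T-REX, 434, 452, 459 and 451 for light alone, 453, 501, 416 and 431 for probe alone and 482, 463, 459 and 478 for DMSO. T-REX replicate 4 touched the range of light alone and probe alone, and no T-REX library reached that of DMSO. The call against DMSO (log2 fold change -0.24, edgeR adjusted p = 0.0154) was 1 of 10 members, where 5.99% of all genes were called. It was lost without DMSO replicate 1 (edgeR adjusted p = 0.0594) and when only these 2 arms were fitted (edgeR adjusted p = 0.0548). The values of -0.18 and -0.17 against light alone and probe alone were not called (edgeR adjusted p = 0.143 and 0.12). None of the members was an SDE gene at 3 h in edgeR, DESeq2 or limma, where 0.947% of all genes were in edgeR. Against light alone at 3 h, 0 members were called by any of these tools and 1 had an unadjusted p of at most 0.05 in edgeR, IRS4, with 0.197% of all genes called.

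At 6 and 12 h, mean NCBP1 counts were higher in the 2 arms where IRS4 was lower. At 12 h NCBP1 stood at 57501 ± 5339 CPM (mean ± SD, n = 4) under T-REX and 59151 ± 10048 for probe alone, against 40519.7 ± 6848 for light alone and 34642 ± 4554 for DMSO. At 6 h the means ± SD were 72832 ± 5963, 82943 ± 12035, 41696 ± 8909 and 53742 ± 5905 CPM in the same order of arms, and at 3 h 75865 ± 15157, 64587 ± 4239, 61369.6 ± 6533 and 53847 ± 6155 CPM. These 2 arms also share the precursor, which DMSO lacked and whose use in light alone could not be settled. Precursor and NCBP1 levels cannot be told apart in this division of arms, and the part of either in the IRS4 result was not tested. IRS4 was also on the list of HEK293T markers, and of the 8 other markers in the tables, NEFL, CDH2 and LIN28B were called lower at 12 h in T-REX against DMSO (log2 values of -0.33, -0.17 and -0.25) and 0 higher, by edgeR, where 6.79% of all genes were called lower. Of the 8, 5 had a value above 0, and the median was 0.08. Against light alone and probe alone at 12 h, 0 of those 8 were called by edgeR.

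The genes next to IRS4 were examined after its values were seen, by taking the nearest 2 tested genes on each side in the order of GENCODE 29. Downstream of IRS4, on its strand, lie 2 transcripts without a protein-coding label in GENCODE 29, AL035425.4 (ENSG00000280322) and AL035425.3 (ENSG00000261409). AL035425.3 had 12 h means of 627 CPM under T-REX, 766 for light alone, 619.9 for probe alone and 851 for DMSO. Both transcripts shared the division of arms seen for IRS4: AL035425.3 was called lower than light alone (-0.29, edgeR adjusted p = 0.0251) and DMSO (-0.44, edgeR adjusted p = 0.000226) and lay at 0.01 against probe alone. For AL035425.4 the log2 fold changes were -0.23, -0.33 and -0.03 in the same order, the first and the second called. Upstream, IRS4-AS1 (ENSG00000237863), an antisense transcript that overlaps the start of IRS4, was called lower against DMSO (-0.97, edgeR adjusted p = 0.000192). Its values of -0.47 and -0.49 against light alone and probe alone were not called (edgeR adjusted p = 0.112 and 0.134). Probe alone was itself called lower than DMSO for IRS4-AS1 (-0.48, edgeR adjusted p = 0.0453). NXT2, an mRNA export cofactor and the next tested gene upstream, lies 799 kb from IRS4. It was likewise called lower than DMSO (-0.42, edgeR adjusted p = 0.0226), as were 6.79% of all genes, and was not called against light alone or probe alone. Whether counting used strand is not given in the sources used here, so reads of IRS4 and IRS4-AS1 cannot be told apart. All of these values share the same libraries.

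**Figure D2:**
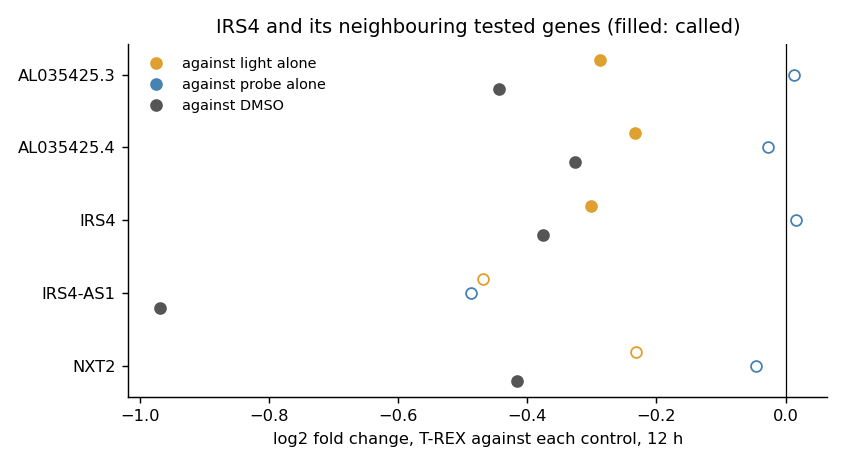
log2 fold change of T-REX against light alone, probe alone and DMSO at 12 h (horizontal axis) for IRS4 and its neighbouring tested genes in chromosome order (rows), filled where the adjusted p is at most 0.05. IRS4 and the 2 downstream transcripts lie near 0 against probe alone and to the left of it against light alone and DMSO.

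IRS1 (ENSG00000169047) and IRS2 (ENSG00000185950), the other adaptors, were not called in any comparison of arms. IRS1 stood at 7.23, 6.32, 7.58 and 6.38 CPM under T-REX at 12 h and 7.16, 8.64, 5.59 and 6.82 CPM for DMSO, which overlapped. Its 9 log2 fold changes against controls ran from -0.32 to 0.14, neither called. IRS2, which has its main role in liver and in beta cells, stood at 18.8, 16.4, 15.2 and 17.0 CPM under T-REX and 16.7, 16.7, 16.4 and 17.5 CPM for DMSO at 12 h. The difference was 0.00 with a 95% interval of -0.17 to 0.17, which leaves out the change of IRS4. At 3 h IRS2 read 0.31 against probe alone, not called (edgeR adjusted p = 0.196).

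INSR (ENSG00000171105), the insulin receptor, exceeded its DMSO level under T-REX at 12 h, and like IRS4 it did not separate T-REX from probe alone. Its 12 h libraries stood at 111, 108, 109 and 108 CPM under T-REX and 107, 108, 108 and 111 CPM for probe alone. Light alone gave 93.3, 96.3, 96.4 and 98.5 CPM and DMSO 98.7, 93.2, 77.0 and 95.4 CPM. The 8 libraries of T-REX and probe alone lay above all others, and DMSO replicate 3 was the lowest. T-REX differed from DMSO by 0.26 on the log2 scale (standard error 0.057, edgeR adjusted p = 0.00411), a call kept in all 16 fits without 1 library and lost in the fit of only these 2 arms (edgeR adjusted p = 0.062). Against light alone the value was 0.19 (edgeR adjusted p = 0.106) and against probe alone 0.01 (95% interval -0.10 to 0.12). Probe alone was called higher than DMSO (0.25, edgeR adjusted p = 0.0128), a call lost in a fit of only those 2 arms (edgeR adjusted p = 0.151).

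IGF2R (ENSG00000197081), the receptor that also carries mannose 6-phosphate-tagged enzymes to lysosomes, showed the same order at 12 h. It stood at 248, 245, 247 and 246 CPM under T-REX, 248, 249, 252 and 265 for probe alone, 223, 228, 222 and 233 for light alone and 224, 206, 173 and 240.5 for DMSO. DMSO spread widest, with replicate 3 at the bottom. The difference between T-REX and DMSO was 0.22 (standard error 0.062, edgeR adjusted p = 0.0227). It did not hold without T-REX replicate 1, 3 or 4 or DMSO replicate 2, and without DMSO replicate 3 it was 0.14, against 0.22 with it. It was also lost in the fit of only these 2 arms (edgeR adjusted p = 0.127). Probe alone was called higher than DMSO too (0.27, edgeR adjusted p = 0.0158), a call lost in a fit of only those 2 arms (edgeR adjusted p = 0.17). T-REX differed from probe alone by -0.04 (95% interval -0.17 to 0.08). NCBP1 was highest in the same 2 arms, and both had received the precursor. The part of either in the INSR and IGF2R results was not tested. With IGFBP5 and IRS4, this made 4 of 10 members called between T-REX and DMSO at 12 h, 2 in each direction, where 10.9% of all genes were called (4.09% higher and 6.79% lower). Against light alone, 2 of 10 were called (1.29% of all genes), and against probe alone 1 of 10 (0.701%). The T-REX libraries did not overlap the control at 12 h for 5 members against light alone (12.6% of all genes), 1 against probe alone (8.82%) and 4 against DMSO (13.4%).

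**Figure D3:**
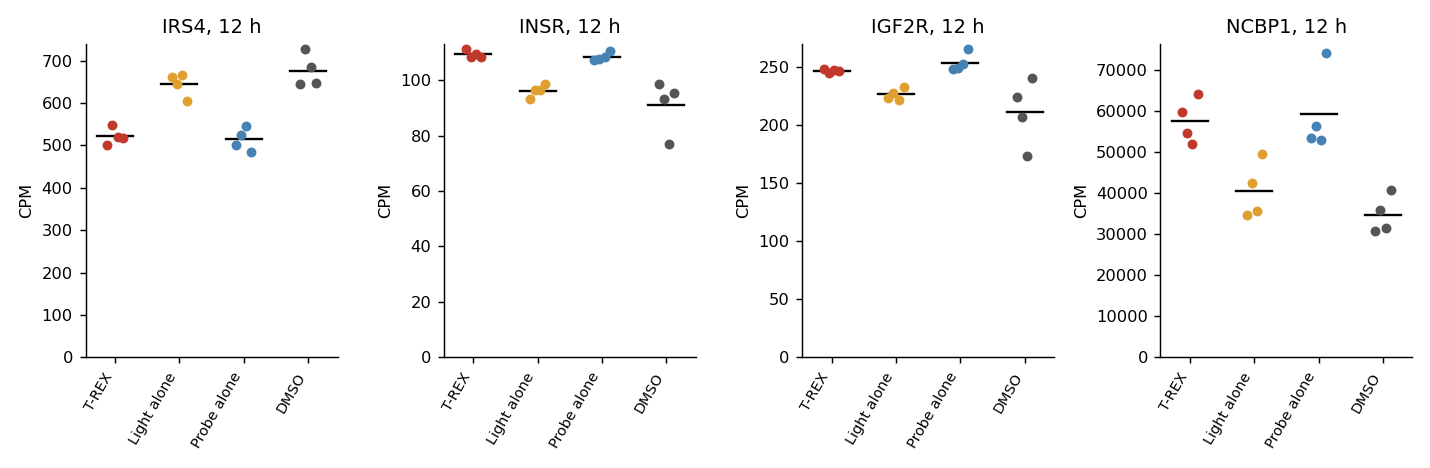
IRS4, INSR, IGF2R and NCBP1 at 12 h in CPM, 1 point per library and a bar at the mean of each arm. T-REX and probe alone stand together in all 4 panels, below light alone and DMSO for IRS4 and above them for INSR, with 1 DMSO library of IGF2R, at 240 CPM, near the T-REX libraries.

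IGF1R (ENSG00000140443), the receptor for IGF1 and IGF2, differed little between arms. At 12 h it stood at 225, 234, 234 and 231 CPM under T-REX and 231, 224, 234 and 231 CPM for DMSO, which overlapped. The difference was 0.00 (95% interval -0.08 to 0.08), against 0.04 for light alone and -0.06 for probe alone, and none was called. At 3 and 6 h its values against the controls ran from -0.12 to 0.04, without a call by edgeR.

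FOXO1 (ENSG00000150907) and FOXO3 (ENSG00000118689), the transcription factors held back by AKT, were not called in any comparison of arms. FOXO1 stood at 45.8, 47.7, 49.0 and 48.6 CPM under T-REX at 12 h and 46.9, 55.4, 53.9 and 53.7 CPM for DMSO. T-REX overlapped the lower part of the DMSO range, and the log2 fold change was -0.13 (edgeR adjusted p = 0.17). FOXO3 stood at 146, 149, 144 and 146 CPM under T-REX at 3 h and 153, 150.0, 152 and 152 CPM for probe alone, without overlap, and the log2 fold change was -0.04 (edgeR adjusted p = 0.66), and 9.33% of all genes did not overlap there. At 6 h FOXO3 differed from probe alone by -0.14 (edgeR adjusted p = 0.483), again without overlap, as for 6.35% of all genes. FOXO3B, its copy, was called higher than DMSO at 12 h (log2 fold change 0.25, edgeR adjusted p = 0.023), and was named after its values were seen. Against probe alone at 6 h, 0 members were called by edgeR, DESeq2 or limma, 2 had an unadjusted p of at most 0.05 in edgeR, and 0.109% of all genes were called.

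**Figure D4:**
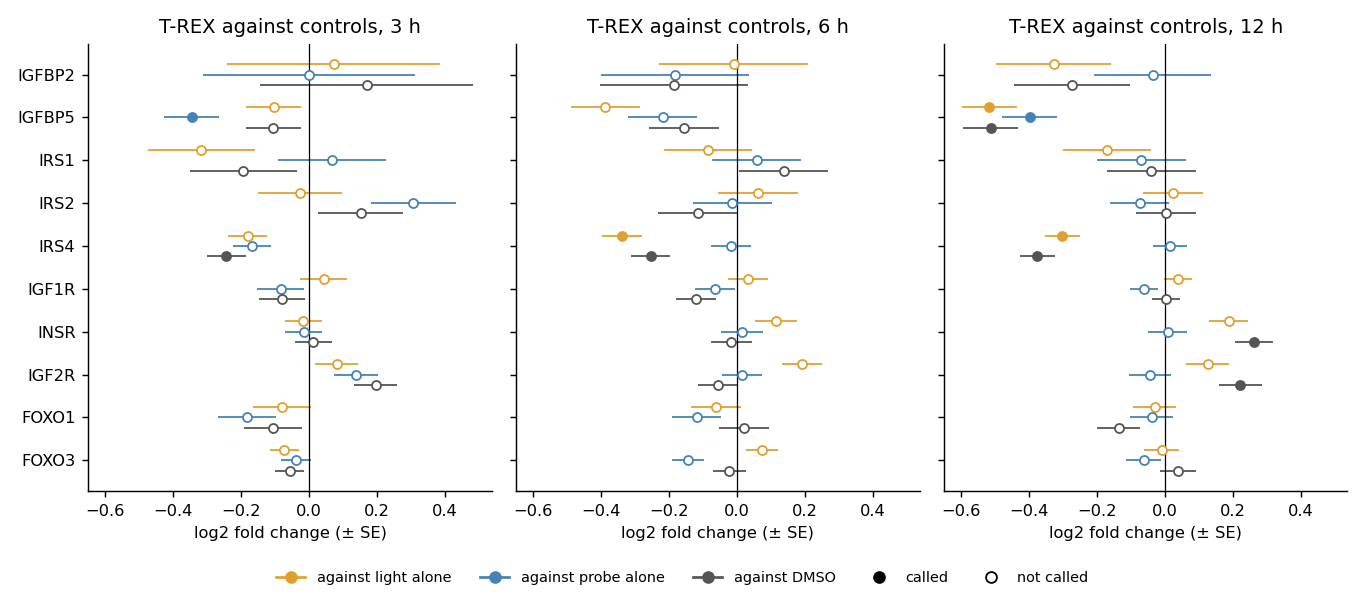
log2 fold change of T-REX against each control with its standard error (horizontal axis) for the 10 genes (rows) at 3, 6 and 12 h (panels), filled where the adjusted p is at most 0.05. IGFBP5 at 12 h is the gene with 3 filled points, at -0.52, -0.40 and -0.51, and IRS4 has filled points against DMSO at all 3 times.

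IGFBP5, IGF1R, IRS4, FOXO1 and FOXO3 rose from 3 to 12 h in every arm. IGF1R at 3 h stood at 131, 127, 146 and 129.9 CPM for DMSO, and at 12 h at the values above, with no overlap. From 3 to 12 h it rose by 0.87 under T-REX, 0.88 for light alone, 0.83 for probe alone and 0.79 for DMSO (log2 fold changes, all called by edgeR). IGFBP5 rose by 1.06 for light alone, 1.05 for DMSO, 0.68 for probe alone and 0.64 under T-REX. IRS4 rose by 0.52 for DMSO, 0.52 for light alone, 0.40 under T-REX and 0.19 for probe alone. FOXO1 rose by 0.31 to 0.49 and FOXO3 by 0.14 to 0.25 over the 4 arms, each called. IRS2 was called higher with probe alone (0.64), DMSO (0.43) and T-REX (0.28), and stood at 0.24 for light alone, not called. INSR was called higher under T-REX (0.23) and with probe alone (0.18), and IGF2R with probe alone (0.19). IGFBP2 and IRS1 were not called in any arm. From 3 to 12 h, 7 members were called under T-REX, 5 for light alone, 8 for probe alone and 6 for DMSO, all higher, where 21.1%, 20.4%, 21.3% and 20.4% of all genes were called higher. Time after treatment and time in culture cannot be told apart in this design. Nor can any difference in harvest or library batch between the times be told apart from time.

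From 3 to 6 h, IGF2R was the 1 member called lower, with light alone (-0.27, edgeR adjusted p = 0.0023). Its 6 h libraries with light alone stood at 191, 190.1, 168 and 213 CPM, against 244, 216, 215 and 240.2 CPM at 3 h, without overlap. It rose again to 12 h in that arm (0.25, edgeR adjusted p = 0.00644). With light alone, 11% of all genes were called lower from 3 to 6 h and 7.41% higher from 6 to 12 h.

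**Figure D5:**
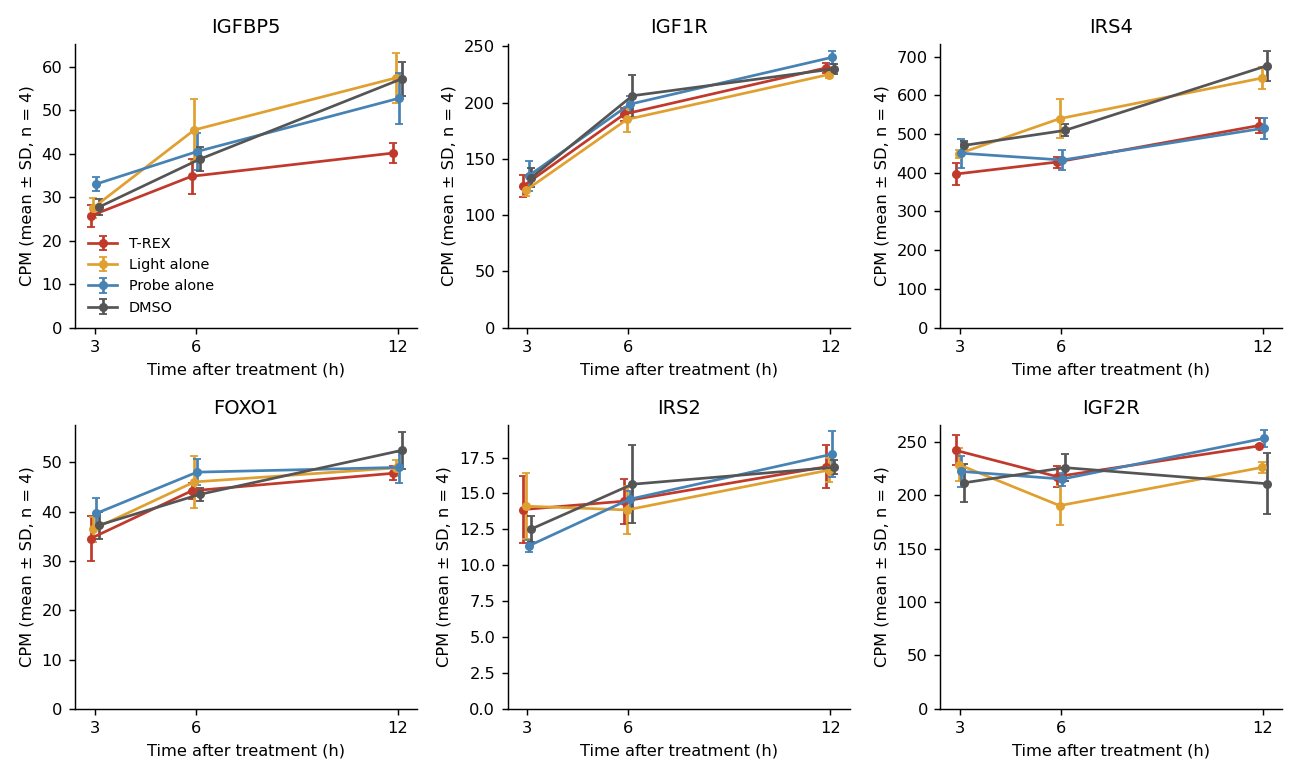
Mean CPM ± SD of 4 libraries per arm at 3, 6 and 12 h for IGFBP5, IGF1R, IRS4, FOXO1, IRS2 and IGF2R. IGF1R rises in all 4 arms, and the IGFBP5 line of T-REX ends at 40.1 CPM at 12 h, below the 52.7 to 57.4 CPM of the controls.

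Whether the T-REX effect itself changed between times was tested with interaction terms in a fit of all 48 libraries. Of 90 values (10 members, 3 controls and 3 pairs of times), 0 were called by edgeR or DESeq2, and 13 had an unadjusted p of at most 0.05 in edgeR. The effect on IGFBP5 at 12 h less that at 3 h was -0.42 against light alone (edgeR adjusted p = 0.336) and -0.40 against DMSO (edgeR adjusted p = 0.238). It was -0.03 against probe alone (edgeR adjusted p = 0.932). The difference between 3 h, where IGFBP5 was not an SDE gene, and 12 h, where it was, is therefore not established by this test. For IRS4 the effect against DMSO changed by -0.13 from 3 to 12 h (standard error 0.078). Against light alone the interaction from 3 to 12 h called 0.0204% of all genes, against probe alone 0.0681% and against DMSO 0.00681%. From 3 to 6 h it called 0.0136% against DMSO, and the other 5 terms called 0%.

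Of 125 further genes of the pathway on 8 lists, 104 were in the tables. Of the 104, 4 were SDE genes at 3 h (3.85%, against 0.947% of all genes), 2 at 6 h (1.92%, against 0.136%) and 6 at 12 h (5.77%, against 1.4%). These shares are descriptions of lists that were not chosen blind to the data. Against DMSO at 12 h, 5 of the 104 were called higher and 16 lower, a share of 20.2% where 10.9% of all genes were called. Against light alone 1 was higher and 6 lower by edgeR (6.73%, against 1.29% of all genes). Against probe alone 0 were higher and 4 lower (3.85%, against 0.701% of all genes). The median log2 fold change of the 104 against DMSO was 0.02, beside 0.00 over all genes.

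Among ligands, binding proteins and their proteases, 6 of 17 were in the tables, so that no IGF or insulin gene could be described. STC1, a stanniocalcin of low abundance here (mean 3.18 CPM) whose family inhibits proteases that cleave IGF-binding proteins, was called lower in 5 of 9 comparisons, among them -1.93 against probe alone at 6 h (edgeR adjusted p = 0.0026) and -1.36 against light alone at 12 h (edgeR adjusted p = 0.00289). STC2 was higher at 3 h against light alone (0.29) and DMSO (0.21), both called. Of 15 other receptors and adaptors, 2 were called in at least 1 of the 9 comparisons with T-REX, as were 14.9% of all genes, both against DMSO at 12 h and named after their values were seen: GRB10, an adaptor that dampens the receptors, at 0.22 and PTPN1, a phosphatase that does so too, at -0.27. PTPN11, SOS1 and GRB2, the abundant signalling partners of the IRS proteins, were not called, with values between -0.19 and 0.09.

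Of 22 genes of phosphatidylinositol 3-kinase and AKT signalling, 3 were called in at least 1 of the 9 comparisons, against 14.9% of all genes. PIK3R1 and PIK3R3, regulatory subunits of the kinase, were lower than DMSO at 12 h (-0.23 and -0.31), and PHLPP1, an AKT phosphatase, was lower than DMSO at 3 h (-0.22), and these too were named after their values were seen. PIK3C2A and MTOR, the most abundant of those not called, lay between -0.16 and 0.12. Of 18 genes of mTORC1 and S6 kinase, the SDE gene was EIF4EBP1, a repressor of cap-dependent translation, higher at 12 h against light alone (0.47, edgeR adjusted p = 0.0282) and DMSO (0.41, edgeR adjusted p = 0.0179). At 12 h against DMSO, the 18 had a median of 0.10, the highest of these lists apart from the FOXO factors, with 1 called higher and 3 lower. Of all genes, 4.09% were called higher and 6.79% lower there.

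Of 25 reported targets of FOXO factors in the tables beside the members, 1 was called higher and 4 lower against DMSO at 12 h, and the median was -0.03. Of all genes, 4.09% were called higher and 6.79% lower in that comparison. TXNIP, which restrains glucose uptake, was lower in all 9 comparisons, from -0.61 against DMSO at 3 h (edgeR adjusted p = 0.00196) to -1.08 against probe alone at 12 h (edgeR adjusted p = 6.51e-07). SESN3, a brake on mTORC1, was lower at 3 h against all controls (-0.28, -0.27 and -0.35 in the order light alone, probe alone, DMSO). BNIP3, a mitophagy receptor, was lower at 12 h against all controls (-0.81, -0.89 and -0.78). CDKN1A, RICTOR and SOD2, the abundant targets that were not called, lay between -0.34 and 0.26.

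Among 17 genes through which insulin acts on glycogen, glucose uptake and lipid, the median log2 fold change at 12 h was -0.15 against DMSO, -0.12 against probe alone and -0.08 against light alone, beside 0.00 over all genes in each. SLC2A1, the constitutive glucose transporter, was lower against all 3 controls at 12 h (-0.69, -0.50 and -0.45 in the order light alone, probe alone, DMSO). PFKFB3, which makes an activator of glycolysis, was lower by a like amount (-0.71, -0.58 and -0.48). TBC1D4, an AKT substrate in glucose transporter traffic, was lower at 3 h against probe alone (-0.25) and DMSO (-0.23). ACLY, GSK3B and ACACA were not called, with values between -0.19 and 0.22. Of the 3 IGF2 mRNA-binding proteins, IGF2BP3 was called, at -0.17 against DMSO at 12 h (where 10.9% of all genes were called), and IGF2BP1 and IGF2BP2 were not. IGF2BP3 was named after its values were seen.

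The genes whose levels were most like those of IGFBP5 and IRS4 were sought over the 12 means of arm and time on the log2 CPM scale, among 10111 genes with a mean log2 CPM above 3. Each mean is over 4 libraries, and the r values describe these 12 points. NREP was most like IGFBP5 (Pearson r = 0.981), followed by TPM1, RALGAPA2, PGM2 and HMGA2 (0.975). Among the members, FOXO1 (r = 0.938) and IGF1R (0.889) were nearer to IGFBP5 than IRS4 was (0.84). AL035425.3, the transcript downstream, was most like IRS4 (r = 0.974). INTS6L, SNAI2 and SMARCA1 were also among the 5 genes most like it (0.954, 0.947 and 0.945).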

How the data were processed

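Total RNA of HEK293T cells was depleted of rRNA, made into stranded libraries (TruSeq) and sequenced in pairs on an Illumina NovaSeq, and the submitters' processing notes name bcl2fastq. The values used are whole read counts per Ensembl gene as the authors deposited them, in 1 table per time, and the deposited log2 CPM served in an alternative. The RUV factors are scores of unwanted variation that the authors deposited per library, by a method not given in the sources used here. The study's reporting summary names cutadapt, TopHat and Cufflinks for the RNA sequencing. The tool that made the whole counts, the strand setting and the genome build are not given in the sources used here, so gene coordinates are not printed except for RefSeq promoters. Exon lengths and gene order came from GENCODE 29. Gene names came from a separate list of symbols, with GENCODE 29 names where that list held none.

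Counts were tested with edgeR 4.0.16 (R 4.3.3) by its quasi-likelihood test with TMM factors and Benjamini-Hochberg adjustment over all 14685 genes, in 1 fit of 16 libraries per time. Times and interactions were tested in 1 fit of 48 libraries. A gene was called at an adjusted p of at most 0.05. The test was run on simulated data first. Alternatives were DESeq2 1.42.0, limma 3.58.1, RLE factors, no filter, 2 RUV factors, a replicate block, only the groups compared, and each library left out. The filter removed no gene from the main fits, so leaving it out was no separate check. The study calls the replicates biologically independent, and the labels do not say what separated them (cultures, transfections or days), so p-values measure the spread between these libraries.

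The named genes were the 10 members, SDE genes of 8 pathway lists (at most 4 per list and time), the 3 most abundant genes of each list that were not called, NCBP1, and the 5 genes most like IGFBP5 and IRS4. Of these, 2 genes are not reported here. The members and lists were chosen with earlier results of these data known.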

Additional observations from a re-analysis of the deposited data

Results flagged for a closer look

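In 2 of 120 sets of 4 libraries (10 members, 4 arms, 3 times), 1 library stood apart from the other 3 by Dixon's test at the 95% level, which chance passes in about 1 of 20 sets. Both were probe alone at 3 h. IGFBP5 in replicate 3 stood at 30.6 CPM, where the others stood at 33.7 to 33.9 CPM. IGF2R in replicate 2 stood at 201 CPM, where the others stood at 228 to 230.5 CPM.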

How the results depend on the processing

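The counts of called members depended most on 2 RUV factors, which raised the T-REX calls at 3 h from 2 to 8 and at 6 h from 2 to 5, the SDE members at 3 h from 0 to 2 and at 12 h from 2 to 4, and the calls between controls from 5 to 20. Fits of only the 2 arms compared left 0 T-REX calls at 3 h, 1 at 6 h and 0 SDE members at 6 h, and at 12 h lost the INSR and IGF2R calls of T-REX and of probe alone against DMSO, while both genes were then called higher for T-REX against light alone. RLE factors left 1 T-REX call and 0 SDE members at 6 h. The cause was not tested. With 1 library left out, T-REX calls ranged from 0 to 3 at 3 h, 1 to 4 at 6 h and 5 to 8 at 12 h (7 with all libraries). SDE members ranged from 0 to 0, 0 to 1 and 2 to 3 at 3, 6 and 12 h, calls between controls from 4 to 7, and calls between times from 56 to 62 (59 with all libraries). Interactions gave 0 calls under every alternative run. Of 1817 alternative values of members that were not called, 54 had the other sign and stayed uncalled.

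Replicate numbers were not taken to pair the samples, since the correlations of same-numbered libraries ran from -0.64 to 0.57, although for replicate 3 at 3 h all 6 were positive (0.15 to 0.57). A replicate block left 0 SDE members at 6 h, and gave 61 calls between times. Limma was not run between times, whose tables the authors normalized separately, and RUV factors were not planned there. Low counts limit what IGFBP2 and IRS1 can show.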
